A study of Ovis aries with 6 samples.

Results

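Osteopontin is the secreted phosphoprotein encoded by SPP1. It was followed here through the 1 row of the deposited RPKM table whose RefSeq accession carries that symbol, NM_001009224.1, out of 49705 transcripts. RPKM scales reads by transcript length and library depth, so levels of different genes can be set side by side. The cells were the somatic cells of milk, which are shed mammary epithelial cells and immune cells, from 3 Comisana ewes, pelleted from 250 ml of milk. Control libraries came from milk taken after 3 weeks on grass hay with a commercial concentrate. Linseed libraries came from the same ewes at the end of 3 further weeks with extruded linseed as 20% of the concentrate's dry matter. There were 3 libraries on each diet. Every ewe had linseed second, so diet and time cannot be told apart. The labels give day 90 of lactation for every library, which cannot be the exact day of both samplings.

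Osteopontin is an acidic, heavily phosphorylated glycoprotein that binds calcium and, through an RGD motif, integrins on the cell surface. CD44 and several integrins that pair with the alpha-v or beta-1 chain are its known receptors. In the lactating gland the epithelium secretes it into milk, where it is a major bioactive protein. Macrophages also make it, above all when activated or loaded with lipid, and there it acts as a cytokine for adhesion and migration. A pellet of milk cells holds both sources. In such bulk samples, fewer cells of a type and less RNA per cell cannot be told apart.

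SPP1 was among the most abundant transcripts of milk cells on the control diet and differed widely between ewes after linseed. It stood at 4453, 4472 and 2376 RPKM in control sheep 1, 2 and 3, and at 232.2, 843.0 and 3661 RPKM in the same sheep on linseed. Sheep 1 and 2 were much lower on linseed and sheep 3 was higher, so the ranges of the diets overlapped. By rank within the library, SPP1 was transcript 12, 15 and 20 in the control libraries and 369, 152 and 15 in the linseed libraries. Over the 6 libraries, 34 transcripts, SPP1 itself included, had a mean RPKM at least as high.

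**Figure D1:**
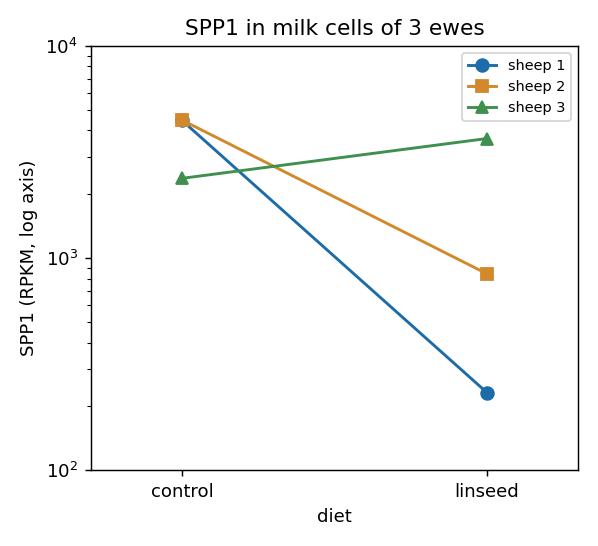
SPP1 level (RPKM, log axis) in each library by diet, 1 line per ewe. Sheep 1 and 2 start at 4453 and 4472 RPKM and end at 232.2 and 843.0 RPKM, while sheep 3 goes from 2376 to 3661 RPKM.

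From the highest to the lowest library, the order was control sheep 2, control sheep 1, linseed sheep 3, control sheep 3, linseed sheep 2 and linseed sheep 1. The first pair could not be told apart: their 95% Poisson intervals, which cover counting error alone, ran from 4443 to 4500 and from 4435 to 4470 RPKM. All other neighbours in that order had separate intervals. The depth behind these values was large, because the RPKM steps gave 240263, 93830 and 60037 SPP1 reads in control sheep 1, 2 and 3 and 2734, 12009 and 173733 on linseed.

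Within sheep 1, SPP1 was 19.2 times lower on linseed, with a 95% counting interval of 18.5 to 19.9. Within sheep 2 it was 5.30 times lower (5.20 to 5.41). Within sheep 3 it was 1.54 times higher (1.53 to 1.56). Each of these differences was larger than counting error, and they did not share a direction. There was 1 library per ewe and diet, so no interval for biological error within an ewe can be given.

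Between the diets, SPP1 averaged 3767 ± 1204 RPKM in controls and 1579 ± 1829 RPKM on linseed (SD, n = 3 each). The log2 change of SPP1, taken as log2(RPKM + 1) for linseed minus control, was -2.01 ± 0.90 (SE), and it did not pass limma with Benjamini-Hochberg adjustment (adjusted p = 0.314). With the ewe as a block the change was -2.01 ± 0.84 and the limma adjusted p was 0.145. No call was made over the whole table without the block (0 of 15891 transcripts tested, 0%, against 2464 with an unadjusted p under 0.05), and 416 (2.62%) were called with it. The same block in voom on the solved reads, a fit added after the data were seen, called 0 (smallest adjusted p 0.0589; 4181 with an unadjusted p under 0.05), so each call with the block named in what follows was lost there. Linseed sheep 3 and linseed sheep 1 weighed most on the SPP1 estimate: it was -3.03 without the former and -1.04 without the latter.

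The changes of SPP1 in sheep 1 and 2 lay near the lower edge of the table. In sheep 1 the log2 change of SPP1 was -4.26, and 71 of the 15891 transcripts (0.447%) had a value at or below it, SPP1 included. In sheep 2 it was -2.41, with 249 transcripts (1.57%) at or below it. In sheep 3 it was 0.62, and 23.6% of transcripts were at or above that value. The median over all tested transcripts was 0.02, 0.03 and -0.22 in sheep 1, 2 and 3. The signs that SPP1 showed (negative in sheep 1 and 2, positive in sheep 3) were shared by 9.51% of tested transcripts.

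SPP1 was also read against transcripts of similar length and against the most abundant ones. Its own length, solved from the RPKM steps, was 2383 nt. The 3513 tested transcripts within 20% of that length had median changes of -0.01, 0.04 and -0.14 in sheep 1, 2 and 3. Of these, 22 lay at or below SPP1 in sheep 1 and 62 in sheep 2. Of 115 transcripts averaging 1000 RPKM or more, 16.5%, 34.8% and 20.9% were lower on linseed in sheep 1, 2 and 3. Most of them thus differed in sign from SPP1 in sheep 1 and 2 and shared its sign in sheep 3, where 66 lay at or above it. In that abundant set 2 transcripts, SPP1 included, lay at or below its change in sheep 1, and 2 in sheep 2.

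As a share of all RPKM in the library, which removes differences in the RPKM total, SPP1 took 0.548%, 0.508% and 0.421% in control sheep 1, 2 and 3. On linseed it took 0.0221%, 0.0907% and 0.511%. The control libraries lay close together, and the linseed libraries spread more widely, with linseed sheep 3 inside the control range. The mean difference was -0.284 percentage points, and the exact test did not separate the diets (two-sided exact permutation p = 0.3, the smallest possible being 0.1). Paired within ewes, the exact sign-flip p was 0.5, the smallest possible being 0.25. The difference was -0.192 without linseed sheep 1 (exact permutation p = 0.3) and -0.436 without linseed sheep 3 (exact p = 0.1). As a share of the RPKM outside milk proteins the difference was -0.652 percentage points (exact permutation p = 0.2).

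The level of SPP1 was next set against products of the epithelium. The caseins CSN1S1, CSN1S2, CSN2 and CSN3, the main milk proteins made by secretory epithelium, summed to 363462, 276062 and 29721 RPKM in control sheep 1, 2 and 3. They summed to 68478, 97490 and 7439 RPKM on linseed, lower in each ewe. Sheep 3 thus had the least casein RNA on both diets, with 2376 and 3661 RPKM of SPP1. Milk proteins took 4.38% and 1.28% of the reads of sheep 3 on the control diet and on linseed, against 23.6% to 47.8% in the other libraries.

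For every 100 RPKM of casein there were 1.23, 1.62 and 7.99 RPKM of SPP1 in control sheep 1, 2 and 3. On linseed there were 0.339, 0.865 and 49.2 RPKM. Relative to casein, SPP1 was lower on linseed in sheep 1 and 2 and higher in sheep 3. The mean log2 ratio of SPP1 to casein was -5.31 ± 1.46 in controls and -5.36 ± 3.82 on linseed (SD, n = 3; two-sided exact permutation p = 1). The sign of this difference of -0.05 turned when control sheep 3, linseed sheep 1 or linseed sheep 2 was left out.

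Markers of the mammary epithelium other than milk proteins went in different directions where SPP1 was lower. Of 13 genes on that list 7 were matched and tested, and together they reached 963.1, 587.9 and 506.9 RPKM in the controls of sheep 1, 2 and 3 and 820.5, 1224 and 99.5 RPKM on linseed. Keratin 8 (KRT8), a filament protein of luminal epithelium, went from 17.6 to 354.9 RPKM in sheep 1 and from 98.6 to 500.0 in sheep 2, where SPP1 was lower, and from 54.5 to 21.3 in sheep 3. CLDN3 went from 167.9 to 282.5 RPKM in sheep 1, from 87.9 to 506.7 in sheep 2 and from 20.5 to 7.30 in sheep 3. KRT8 and CLDN3 led the summed RPKM of linseed sheep 1 and 2, so that sum does not stand for the other members. EPCAM, an epithelial adhesion protein, was lower on linseed in every ewe, at 214.5, 90.9 and 17.8 RPKM in controls and 23.5, 63.4 and 4.37 on linseed. CD24, a surface glycoprotein, was the 1 member called with the ewe as a block (limma adjusted p = 0.0461; 0.263 without it), and the call was lost in voom with that block. Of the 7, 5 were lower in all 3 sheep (EPCAM, ELF5, BTN1A1, XDH and CD24), against 26.2% of all tested transcripts, and 0 were higher.

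**Figure D2:**
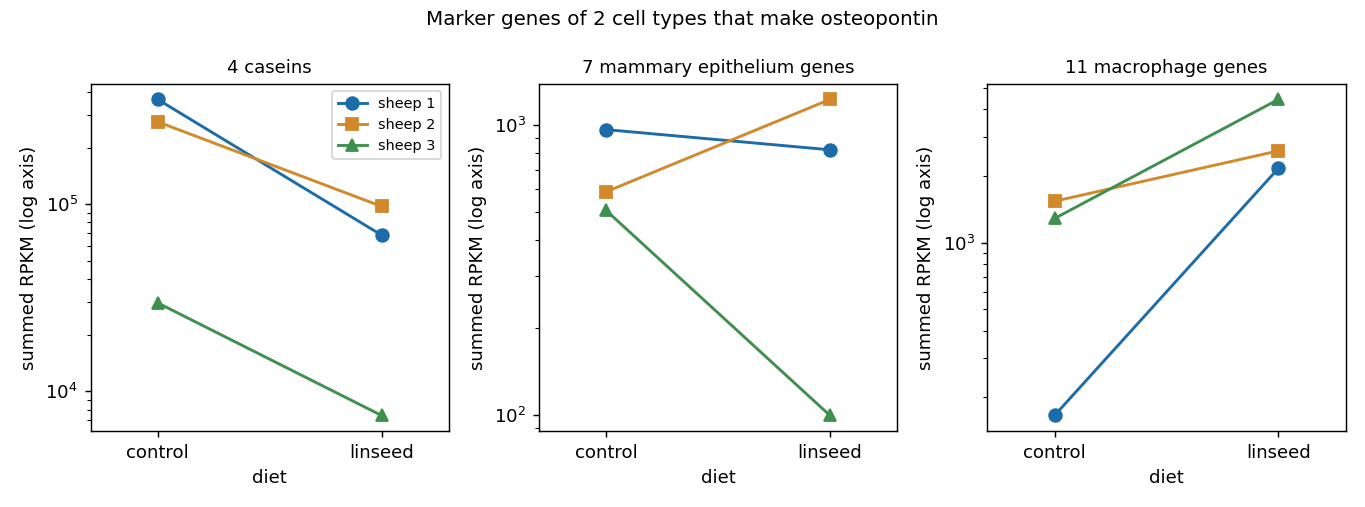
Summed RPKM (log axis) of 4 caseins, 7 mammary epithelium genes and 11 macrophage genes in each library by diet, 1 line per ewe. The casein sum is lower and the macrophage sum higher on linseed in each ewe, and sheep 3 has the lowest casein sum on both diets. KRT8 and CLDN3 lead the epithelial sum in linseed sheep 1 and 2.

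The summed macrophage markers were higher on linseed in sheep 1 and 2, where SPP1 was lower, and in sheep 3. The 11 matched genes of a list of 16 summed to 165.5, 1537 and 1285 RPKM in control sheep 1, 2 and 3 and to 2165, 2597 and 4435 RPKM on linseed. The groups did not overlap. Without TYROBP, a signalling adaptor that neutrophils and natural killer cells also use, the sums were 114, 827 and 700 RPKM in controls and 734, 1005 and 1904 on linseed, still higher in each ewe but with overlapping groups. TYROBP made up 30.8% to 66.1% of the sum. Of the 10 tested genes, 4 were higher in all 3 sheep (CD68, AIF1, TYROBP and C1QA), against 23.0% of all tested transcripts. In all 3 sheep 2 were lower (MRC1 and ITGAM), against 26.2% of all tested transcripts. None was called with or without the block. CD68, a lysosomal glycoprotein of macrophages, stood at 70.4, 376 and 305 RPKM in controls and 368, 601 and 923 on linseed.

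Against the sum of these genes SPP1 was lower on linseed in all 3 ewes. In sheep 3, CD14, MRC1 and ITGAM were themselves lower on linseed, so SPP1 was higher against each of them there. Divided by the macrophage sum, SPP1 gave ratios of 26.9, 2.91 and 1.85 for control sheep 1, 2 and 3, and of 0.107, 0.325 and 0.825 on linseed, so every linseed library lay under every control library. The mean log2 ratio was 2.39 ± 2.07 in controls and -1.71 ± 1.47 on linseed (SD, n = 3). Its difference of -4.10 had a two-sided exact permutation p of 0.1, the smallest that 3 libraries against 3 allow, and an exact sign-flip p of 0.25, also the smallest possible. Without TYROBP the difference was -3.48 (exact permutation p = 0.1), a choice made after the values were seen. With the mean log2 of the members in place of their sum it was -2.84 (exact permutation p = 0.1). Against CD68 alone, the ratio of SPP1 was 63.2, 11.9 and 7.80 in controls and 0.631, 1.40 and 3.97 on linseed.

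**Figure D3:**
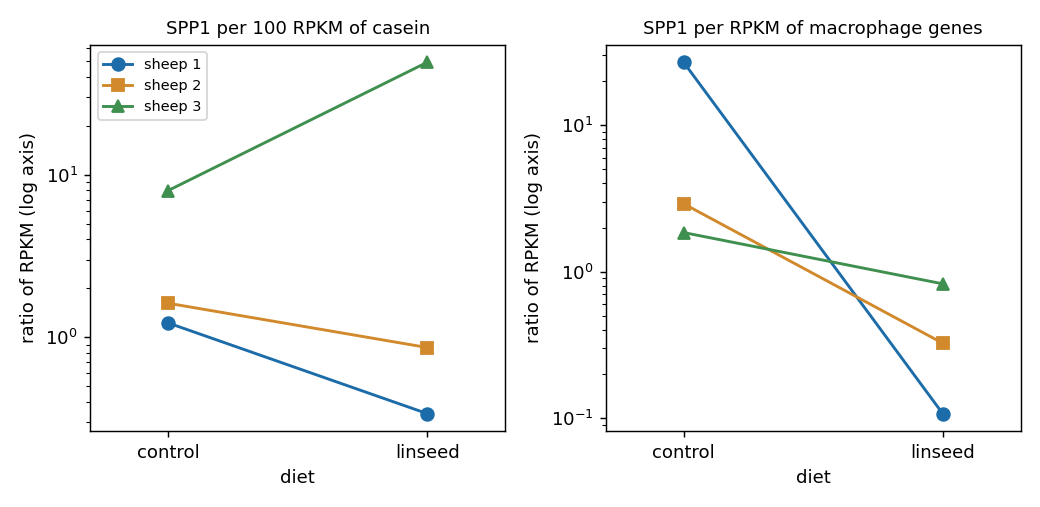
Ratio of SPP1 to the summed caseins (left, per 100 RPKM of casein) and to the summed macrophage genes (right), both on log axes, by diet with 1 line per ewe. The casein ratio moves in opposite directions between ewes, while the macrophage ratio goes from 1.85 to 26.9 in controls to 0.107 to 0.825 on linseed.

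The same reading was made gene by gene, counting genes to which the ratio of SPP1 was lower in every linseed library than in every control library. This held for 21.0% of the other 15890 tested transcripts. It held for 7 of 10 macrophage genes (CD68, MSR1, AIF1, TYROBP, FCER1G, C1QA and CD86) and for 7 of 10 genes of lipid-associated macrophages. It also held for 2 of 6 neutrophil genes (S100A8 and S100A9), 1 of 4 B cell genes (MS4A1) and PECAM1, the 1 tested gene of stroma and endothelium. Outside the cell types it held for 2 of 5 enzymes that modify osteopontin (ACP5 and MMP9) and 1 of 3 other ligands of alpha-v integrins (TGFB1). It held for 0 of 7 milk proteins, 0 of 7 epithelial genes and 0 of 8 genes of T and NK cells. Nor did it hold for any of 6 osteopontin receptors, 3 transcription factors of SPP1 or IBSP, a relative of osteopontin. Among macrophage genes, CD14, MRC1 and ITGAM were the exceptions. MRC1, the mannose receptor, was lower on linseed in every ewe, at 2.77, 7.36 and 12.4 RPKM in controls, listed at 0 in linseed sheep 1, and at 1.23 and 5.73 RPKM in linseed sheep 2 and 3.

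Lipid-associated macrophages are a state in which SPP1, TREM2 and genes of lipid handling are often found together. In these libraries they did not share a direction. Of 10 tested members of the list, 4 had the signs of SPP1 in all 3 ewes (GPNMB, CD9, LGALS3 and PLIN2), against 9.51% of all tested transcripts. In all 3 sheep 2 were higher (TREM2 and CTSB), against 23.0% of all tested transcripts, and 1 was lower (LPL), against 26.2%. TREM2, a lipid receptor, went from 6.75, 83.0 and 13.5 RPKM to 304.0, 257.6 and 276.9 and was the 1 member called with the block (limma adjusted p = 0.0401; 0.263 without it), a call that voom with the block did not make. The next 3 genes are given because they had the signs of SPP1, a choice made after their values were seen. LGALS3, which encodes galectin-3, had 544.7, 1280 and 481.0 RPKM in controls and 202.4, 726.2 and 1623 on linseed. CD9, a tetraspanin of epithelium and macrophages, had 629.4, 454.6 and 137.6 RPKM in controls and 41.3, 187.5 and 214.9 on linseed. GPNMB, a lysosomal glycoprotein, had 29.3, 135.5 and 57.0 RPKM in controls and 18.2, 48.6 and 158.2 on linseed. The list had a median log2 change of 0.37, against -0.12 over all tested transcripts, and no call without the block.

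**Figure D4:**
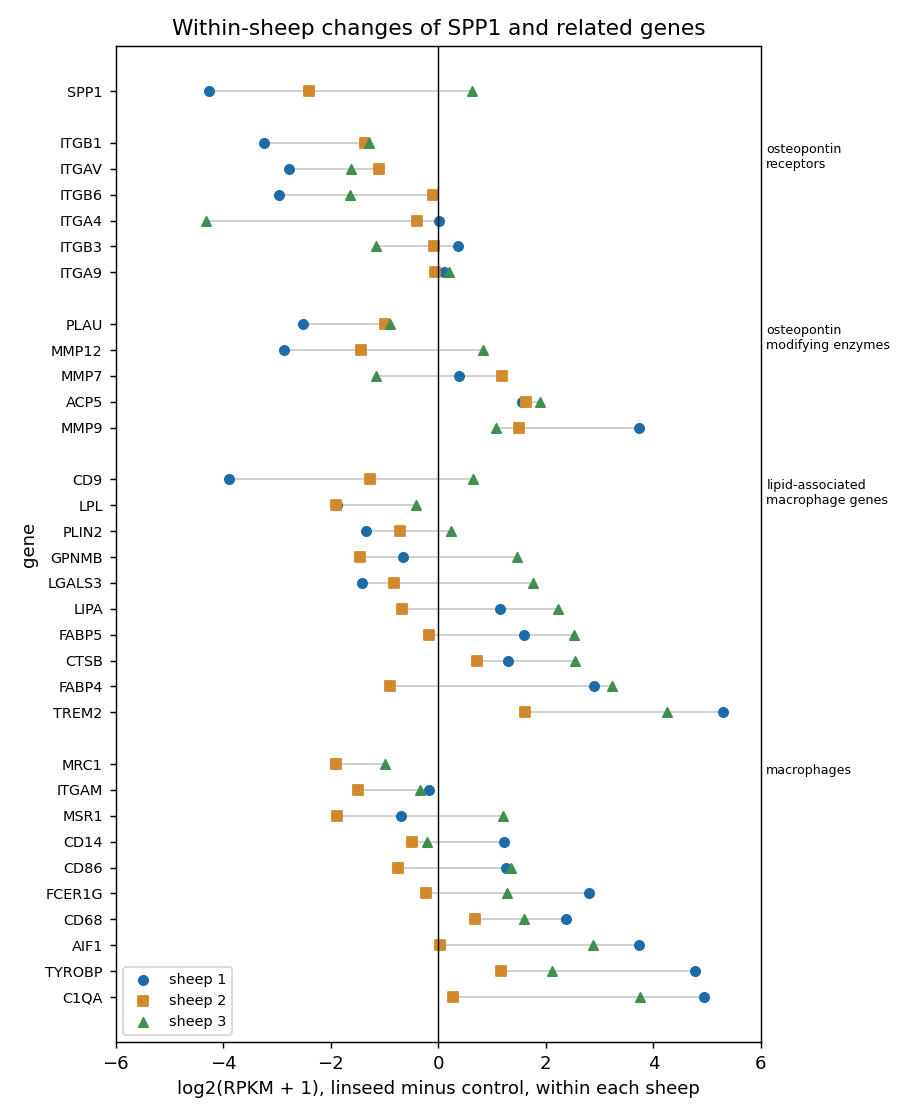
Change in log2(RPKM + 1) from control to linseed within each ewe (x axis) for SPP1 and the tested genes of 4 lists (y axis), 1 point per ewe. SPP1 lies at -4.26, -2.41 and 0.62, and TREM2, CD68 and TYROBP lie above 0 in every ewe.

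Of the receptors of osteopontin, 6 of 10 were matched and tested, all with low levels of the matched transcript. CD44, ITGB5, ITGA5 and ITGA8 were not matched. No receptor was called, with or without the block. The integrin alpha-v chain (ITGAV), shared by most RGD-binding receptors of osteopontin, had 13.8, 3.64 and 5.90 RPKM in control sheep 1, 2 and 3 and 1.16, 1.17 and 1.24 on linseed. These groups did not overlap, and the log2 change was -1.83 ± 0.60 (SE; limma adjusted p = 0.263, or 0.0613 with the block).

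The integrin beta-1 chain (ITGB1) had 8.47, 3.55 and 11.6 RPKM in controls, was listed at 0 in linseed sheep 1 and had 0.768 and 4.13 RPKM in linseed sheep 2 and 3. Its log2 change was -1.97 ± 0.72 (limma adjusted p = 0.272). ITGB6, an epithelial partner of alpha-v, had 10.9, 0.817 and 2.31 RPKM in controls and 0.514, 0.708 and 0.0637 on linseed. ITGAV, ITGB1 and ITGB6 were lower in all 3 sheep, as were 26.2% of all tested transcripts. ITGA4 rested on 1 library, with 29.2 RPKM in control sheep 3 and at most 0.515 RPKM in the others. The median log2 change of the 6 receptors was -1.56, or -0.83 without control sheep 3, and no receptor had the order of signs seen for SPP1. That median lay between ITGB6 (-1.57), above 2.31 RPKM in control sheep 1 alone, and ITGA4 (-1.56), so it leans on single libraries.

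Enzymes that cut or modify osteopontin went both ways, with 5 of 12 listed genes tested and none called, with or without the block. ACP5, the tartrate-resistant acid phosphatase that can remove phosphates from osteopontin, had 113, 106 and 112 RPKM in controls and 336, 329 and 417 on linseed. Those groups were tight and did not overlap, with a log2 change of 1.70 ± 0.56 (SE; limma adjusted p = 0.263, or 0.0966 with the block). Its other transcript, NM_001252177.2, was mostly read in sheep 2, at 157.2 RPKM in the control and 652.7 on linseed. The sum of both transcripts was 112.3 to 262.8 RPKM in controls and 353.2 to 981.9 on linseed.

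MMP9, a gelatinase of neutrophils and macrophages that cleaves osteopontin, had 1.69, 19.6 and 62.8 RPKM in controls and 34.5, 57.4 and 133.0 on linseed, higher in every ewe. PLAU, the urokinase plasminogen activator, was lower in every ewe, with a log2 change of -1.48 ± 0.81. MMP12, the macrophage elastase, had the signs of SPP1, at 52.1, 110.3 and 7.75 RPKM in controls and 6.32, 40.0 and 14.6 on linseed. The other 7 enzymes on the list were unmatched or under the filter.

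Relatives of osteopontin, the SIBLING family of acidic matrix proteins, were read at low levels or not at all. DMP1, under the filter, had 0.788, 1.77 and 1.38 RPKM in controls and 0.185, 0.306 and 0.574 on linseed. DSPP was listed at 0 in every library and MEPE in all but control sheep 3, at 0.0508 RPKM. IBSP, bone sialoprotein, was the 1 tested member, with 0.321, 5.77 and 2.58 RPKM in controls and 0.691, 5.07 and 0.643 on linseed.

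Of 10 other ligands of alpha-v integrins, 3 were tested and none was called, with or without the block. TGFB1, whose latent form binds these integrins, had 6.1, 39.6 and 113.8 RPKM in controls and 107.5, 136.8 and 249.8 on linseed, with a log2 change of 2.27 ± 0.92 (limma adjusted p = 0.291).

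Of 8 transcription factors described at the SPP1 promoter, 3 were tested. The AP-1 subunits JUN and FOS had log2 changes of -0.45 ± 0.72 and -0.80 ± 0.82. ETS1 was lower in every ewe, at 14.2, 9.17 and 189.7 RPKM in controls and 2.19, 3.66 and 8.81 on linseed, and it was called with the block (limma adjusted p = 0.0481; 0.289 without it) but not in voom with the block. ETS1 is also a factor of lymphocytes, and T and NK cell genes summed to 10.49, 190.5 and 747.4 RPKM in control sheep 1, 2 and 3 and 130.6, 84.1 and 171.5 RPKM on linseed. Their part in the ETS1 values was not tested.

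In the RefSeq gene order of assembly ARS-UI_Ramb_v3.0, used for order alone, SPP1 lies between PKD2 and MEPE, with ABCG2 next to PKD2 and IBSP next to MEPE. Of the 5 genes on each side, 5 were matched and 4 tested. ABCG2, the transporter that carries riboflavin and drugs into milk, had 31.5, 21.6 and 3.41 RPKM in controls and 2.75, 3.94 and 7.52 on linseed. It shared the signs of SPP1 in every ewe, with a log2 change of -1.45 ± 0.79 (limma adjusted p = 0.381). LAP3, a leucine aminopeptidase, had 28.7, 51.6 and 35.4 RPKM in controls and 5.77, 19.4 and 40.1 on linseed, again with the signs of SPP1. Over all tested transcripts, 9.51% had these signs. PKD2, beside SPP1, had at most 2.13 RPKM in every library.

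The genes most like SPP1 over the 6 libraries were sought among 2495 genes with a symbol and a mean of at least 10 RPKM, by Pearson r of log2(RPKM + 1). They were H2AZ1, a histone variant (r = 0.998), TAF9 of the general transcription machinery (0.995), DEGS1, the dihydroceramide desaturase (0.995), EMC4 (0.993), the co-chaperone DNAJA1 (0.993), the initiation factor EIF1B (0.991), LOC101103182 (0.991) and MMADHC, of cobalamin metabolism (0.989). H2AZ1 had 173.8, 192.0 and 114.7 RPKM in controls and 21.6, 59.0 and 147.2 on linseed, in the same order of libraries as SPP1. No casein and no listed macrophage gene was among them, but 8 places among 2495 genes say little about a few named genes. The caseins had r from -0.041 (CSN3) to 0.329 (CSN1S2). MRC1 (r = 0.820), MSR1 (0.725) and ITGAM (0.561), macrophage genes averaging under 10 RPKM, were not among the genes compared. Among listed genes, PLIN2 (r = 0.931), LPL (0.930), CD9 (0.880) and ITGB1 (0.844) lay highest, whereas KRT8 (-0.807), S100A9 (-0.805) and CD7 (-0.703) lay lowest.

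The genes most unlike SPP1 were LOC101118727 (r = -0.979), LOC106991444 (-0.972), the transcriptional co-activator CITED4 (-0.967) and LOC101109212 (-0.965). These are descriptions over 6 libraries that share ewes and library depth, and 9.82% of the genes compared reached an r of 0.9 or more. Within sheep 1 the log2 changes of the 8 genes most like SPP1 ran from -3.27 for DNAJA1 to -1.30 for LOC101103182, against -4.26 for SPP1. Within sheep 3, DEGS1 had 0.71 against 0.62 for SPP1.

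**Figure D5:**
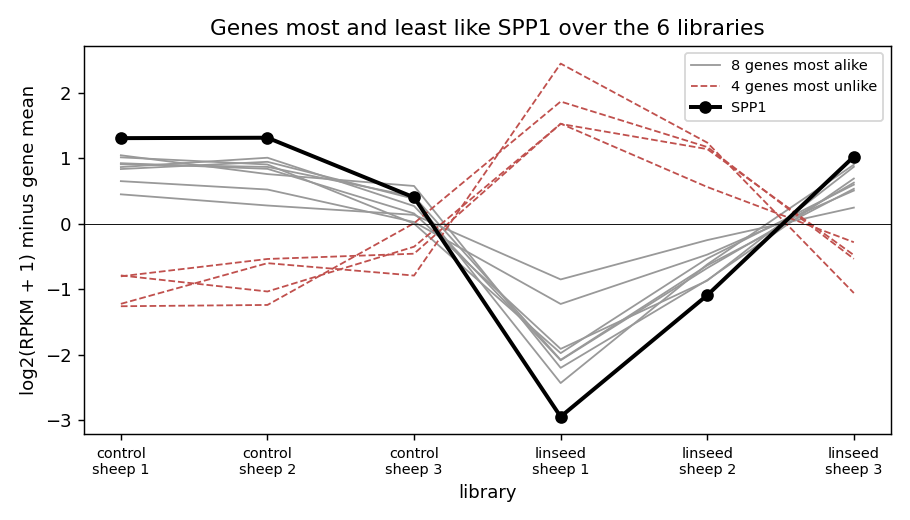
log2(RPKM + 1) minus the gene's own mean (y axis) in each library (x axis) for SPP1, the 8 genes most like it and the 4 most unlike it. SPP1 and the genes most like it are lowest in linseed sheep 1, where the unlike genes peak.

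Depth and the RNA of cell type markers differed between libraries beside these results. Library totals solved from the RPKM steps ran from 4941935 to 22644050 reads, and linseed sheep 1, with the lowest SPP1, was the shallowest. Summed neutrophil markers were 846 to 1565 RPKM in controls and 2085 to 3415 on linseed, with S100A8 and S100A9 leading in every linseed library. LTF, lactoferrin, which epithelium also makes, gave 1146 RPKM of that sum in control sheep 1. B cell genes summed to at most 25.9 RPKM. DCN and COL3A1, which mark stroma, and ALAS2, which marks erythroid cells, were listed at 0 in every library. The part of depth and of cell content in the SPP1 values was not tested.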

How the data were processed

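The authors deposited 1 table of RPKM values, with 1 column per library and RefSeq transcript accessions as rows. For trimming, the submitters' processing notes name Trimmomatic 0.33. Which aligner, counter and genome build were used was not given in the sources used here. Control and linseed were read from the sample titles and the series design, and the same animal identifiers stood under the same numbers in both groups.

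Accessions were matched without version to RefSeq symbols of ARS-UI_Ramb_v3.0 (15836 of 49705). Gene levels rest on matched transcripts alone, and other transcripts of a gene may be among the unmatched. Transcripts averaging 1 RPKM or more (15891) were compared as log2(RPKM + 1) with limma 3.58.1 in R 4.3.3 (mean-variance trend, Benjamini-Hochberg, adjusted p under 0.05 called), without a block. For genes with several transcripts, the one of highest mean stood for the gene. Paired libraries' deviations from group means correlated at 0.18, 0.25 and 0.40 in sheep 1, 2 and 3, while control sheep 1 correlated more with linseed sheep 2 (0.24); the pairing itself comes from the animal identifiers. Whole reads were solved from the RPKM steps (tolerance 0.002 reads) for 43677 of 43681 transcripts above 0. This step and limma were also run on simulated data. The simulation for limma had independent noise and no ewe effect, so it does not speak for paired libraries. Reads without molecular identifiers are not independent molecules, so intervals cover counting error alone. Ratios and shares were compared with two-sided exact permutation tests, which ignore the pairing, and with exact sign-flip tests paired within ewes. SPP1, the gene lists and the tests were chosen with earlier results of these data known. The genes named were SPP1, list members, the 5 genes on each side of SPP1, and the 8 most and 4 least like it by Pearson r. Another pseudocount, filters, scalings, voom on the solved reads, the ewe as a block and leaving out libraries were also tried.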

Additional observations from a re-analysis of the deposited data

How the results depend on the processing

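The log2 change of SPP1 was negative under all 19 other settings, from -3.33 without sheep 3 to -0.89 without sheep 1, and limma called it in 0 of them (adjusted p 0.0868 to 0.917). The median over all tested transcripts, -0.12, was -0.01 after quantile normalization, -0.28 with totals taken without milk proteins and -0.31 with an equal RPKM sum, where SPP1 stood at -2.35, -2.25 and -2.28. The count of calls over the table was 416, without SPP1 among them, with the ewe as a replicate block, and 0 under the other settings, voom with that block included. SPP1 itself had the limma adjusted p 0.145 with that block. Voom with the block, an equal RPKM sum and leaving out whole ewes were chosen after seeing the data. The median log2 change of the 6 receptors, -1.56, was -2.45 with a pseudocount of 0.1, -2.44 with voom on the solved reads, -2.51 with voom and the block, -0.86 without sheep 3, and from -2.18 to -0.83 when 1 library was left out; the cause was not tested. The linseed minus control difference in the mean log2 ratio of SPP1 to casein ranged from -2.21 to 1.38 when 1 library was left out. For the ratio to macrophage genes the difference ran from -4.85 to -2.92, with an exact permutation p of 0.1 to 0.2. That difference was -2.84 with the mean log2 of the members in place of their sum. With all 7 milk proteins in place of the caseins, the difference was -1.20. SPP1 had 1 matched transcript, so summing its transcripts changed no value. Precision rests on 3 ewes, and for receptors on few reads.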
